A study of Mus musculus with 14 samples.

Results

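The 7 genes described here encode transcription factors of the interneuron lineage. They are the distal-less homeobox genes Dlx1, Dlx2, Dlx5 and Dlx6, the LIM homeobox gene Lhx6, the HMG-box gene Sox6 and the basic leucine zipper gene Maf. They were picked by symbol from the 53465 gene identifiers of the count tables, with earlier results of these data known. All 7 were found once each, and all 7 passed the filter on low counts in every comparison.

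Cortical interneurons are the inhibitory, GABA-releasing cells of the cortex, and in the mouse most of them are born outside it, in the ganglionic eminences of the ventral forebrain. Dlx1 and Dlx2 act first in the progenitors there, Dlx5 and Dlx6 act after them, and together they direct the GABAergic fate and migration. Lhx6 and then Sox6 are needed in cells of the medial eminence, which become somatostatin and parvalbumin interneurons, and Maf acts in the same lineage. Adult interneurons keep some expression of these genes, while Sox6 is also a gene of oligodendrocyte precursors, and Dlx genes are also expressed in striatal neurons and in migrating neuroblasts.

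RNA was sequenced in bulk from tissue of the anterior cingulate cortex, part of the medial frontal lobe, in a study of ARNT2 and somatostatin interneurons in affective empathy. The 4 groups were AKR/J mice (AKR) labelled OFL (3 libraries), C57BL/6NJ mice (B6N) labelled OFL (3 libraries), naive AKR mice (4 libraries) and naive B6N mice (4 libraries). OFL stands for observational fear conditioning, in which a mouse watches another receive shocks. The labels name no transgene and no targeted allele, and give no age, no time after conditioning and no number of mice behind a library. Where nothing says that libraries came from separate mice, the p-values measure the spread between libraries, which may be technical. The naive and the OFL counts were deposited as separate tables, so condition and library set cannot be told apart in any OFL minus naive difference.

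Total counts ran from 13487311 to 14396289 in AKR OFL libraries, from 14063573 to 14526253 in B6N OFL libraries, from 19073921 to 23782061 in naive AKR libraries and from 20583264 to 25780227 in naive B6N libraries. The tissue label was matched by cortical glutamatergic genes, with Slc17a7, the vesicular glutamate transporter, at a mean of 736 and 707 CPM (counts scaled to the size of the library) in AKR and B6N OFL libraries and at 1365 and 1320 CPM in naive AKR and B6N libraries. The striatal factor genes Isl1 and Six3 were at a mean of at most 0.0641 CPM in every group, and the neuroblast gene Igfbpl1 at no more than 0.120 CPM. Levels below are CPM scaled by the trimmed mean of M values (TMM). Because the tissue is bulk, fewer cells of a type and less RNA per cell cannot be told apart. A gene was called at a Benjamini-Hochberg adjusted p under 0.05 over all genes tested, by edgeR's two-sided quasi-likelihood test. Each interval of a difference is an approximate 95% interval for that gene alone, from its standard error (SE) and the normal distribution. Such intervals are somewhat narrower than the test implies. That of Sox6 between OFL strains was wholly positive, though its unadjusted edgeR p was 0.054.

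Among naive mice, Dlx2, Dlx5, Dlx6 and Sox6 were higher in AKR than in B6N, and no gene of the 7 was called lower. Dlx2 stood 1.52-fold, Dlx5 1.48-fold, Dlx6 1.38-fold and Sox6 1.14-fold higher in AKR. Dlx1, the neighbour of Dlx2, was not among them and had the only negative difference of the 7. The 4 calls compare with 37.8% of the 17645 genes tested that were called between the naive strains, 18.3% being higher in AKR. The median difference of the 7 genes was 0.19 on the log2 scale, beside 0.01 over all genes tested.

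Dlx1 and Dlx2 lie on chromosome 2 and face each other with 9426 bases between them. In GENCODE coordinates of the build GRCm38, Dlx1 (ENSMUSG00000041911) spans chr2:71528113-71533981 on the plus strand and Dlx2 (ENSMUSG00000023391) chr2:71543408-71546754 on the minus strand. Dlx2 had 8.07, 8.86, 8.60 and 8.83 CPM in naive AKR libraries, against 5.03, 6.03, 4.79 and 6.83 CPM in naive B6N libraries. Every naive AKR library was above every naive B6N library. The log2 difference of Dlx2 was 0.60 (SE 0.10, edgeR adjusted p = 0.000197). Dlx1 had 36.3, 39.3, 32.7 and 37.9 CPM in naive AKR libraries, against 40.5, 40.1, 37.6 and 40.3 CPM in naive B6N libraries. The strains overlapped in Dlx1, with a log2 difference of -0.11 (SE 0.05, interval -0.22 to -0.01, edgeR adjusted p = 0.103). Without replicate 2 of the naive AKR libraries Dlx1 was called lower, at -0.15 (edgeR adjusted p = 0.0425), and without replicate 3 it was at -0.066 (edgeR adjusted p = 0.323).

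The windows around the start sites of this pair are shown because every naive AKR library held less Dlx1 per Dlx2 than every naive B6N library, as given with the ratios between neighbours. The RefSeq promoter table of GRCm38.p6 held 4 of the 7 genes, Dlx1, Dlx2, Lhx6 and Sox6, in 11 windows of 300 bases, each from 250 bases before to 50 after a start site. The window of Dlx1 is chr2:71529195-71529494 on the plus strand, and that of Dlx2 is chr2:71546705-71547004 on the minus strand. Capitals mark the E-box letters CACGTG, which read the same on both strands.
Dlx1: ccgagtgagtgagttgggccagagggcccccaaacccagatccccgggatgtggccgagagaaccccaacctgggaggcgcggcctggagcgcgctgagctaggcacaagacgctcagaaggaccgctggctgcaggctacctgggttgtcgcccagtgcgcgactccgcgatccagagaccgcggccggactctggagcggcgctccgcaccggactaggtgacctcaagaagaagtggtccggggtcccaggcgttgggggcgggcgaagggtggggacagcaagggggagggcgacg
Dlx2: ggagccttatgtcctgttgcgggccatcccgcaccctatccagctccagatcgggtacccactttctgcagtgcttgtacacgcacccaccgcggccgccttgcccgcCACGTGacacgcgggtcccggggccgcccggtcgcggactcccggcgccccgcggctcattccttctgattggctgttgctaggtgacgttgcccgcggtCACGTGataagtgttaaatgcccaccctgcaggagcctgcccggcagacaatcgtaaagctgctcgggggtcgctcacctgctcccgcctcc

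The Dlx2 window held CACGTG at 2 places and the Dlx1 window at none. Of 32851 promoter windows of the same length, 7.15% held CACGTG and 0.594% held it at least 2 times. The shorter core ACGTG, read on both strands and present in 19.6% of windows, matched in Dlx2 only inside those same letters. The usual core of homeodomain sites, TAATTA, was in 5.29% of all windows. The core of MAF sites, TGCTGA, was in 19.5%, that of SOX sites, ACAAAG, in 18.7%, and the TATA box letters, TATAAA, in 13.6%. None of these 4 was in the Dlx1 or Dlx2 window on either strand. Both windows were rich in G and C, at 69.3% for Dlx1 and 66.3% for Dlx2, against a median of 52.7% over all windows, and they held 27 and 29 CpG, against a median of 7.

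Dlx5 and Dlx6 form the second facing pair, on chromosome 6 with 9236 bases between them. Dlx6 (ENSMUSG00000029754) spans chr6:6863334-6868568 on the plus strand and Dlx5 (ENSMUSG00000029755) chr6:6877805-6882085 on the minus strand. Dlx5 had 5.36, 6.06, 5.54 and 5.10 CPM in naive AKR libraries, against 3.70, 4.14, 2.52 and 4.46 CPM in naive B6N libraries, a log2 difference of 0.57 (SE 0.14, edgeR adjusted p = 0.00338). Dlx6 had 5.27, 4.96, 4.71 and 5.62 CPM in naive AKR libraries, against 3.62, 4.05, 3.60 and 3.69 CPM in naive B6N libraries, a log2 difference of 0.46 (SE 0.10, edgeR adjusted p = 0.00198). In both genes all 4 naive AKR libraries were above all 4 naive B6N libraries. Dlx5 varied most among naive B6N libraries, with its lowest value in replicate 3.

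Lhx6, the factor of the medial eminence, did not separate the naive strains. Lhx6 (ENSMUSG00000026890, chr2:36081953-36105408, minus strand) had 26.5, 28.5, 27.5 and 30.5 CPM in naive AKR libraries, against 26.8, 25.7, 29.6 and 27.1 CPM in naive B6N libraries. Its log2 difference was 0.05 (interval -0.06 to 0.16, edgeR adjusted p = 0.502). Maf (ENSMUSG00000055435, chr8:115682942-115707794, minus strand) had 28.7, 28.5, 26.1 and 30.7 CPM in naive AKR libraries, against 26.2, 28.5, 25.2 and 27.2 CPM in naive B6N libraries. The strains overlapped in Maf too, at 0.09 (interval -0.02 to 0.20, edgeR adjusted p = 0.215).

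Sox6 (ENSMUSG00000051910, chr7:115470872-116038796, minus strand), which acts after Lhx6, was the only 1 of the 3 later factors called. It had 34.1, 31.3, 33.3 and 30.1 CPM in naive AKR libraries, against 28.5, 28.4, 27.6 and 28.2 CPM in naive B6N libraries. The strains did not overlap, and the log2 difference was 0.19 (SE 0.05, edgeR adjusted p = 0.00597). Groups without overlap were found in 34.7% of the genes tested between the naive strains, 16.8% with AKR above, and in 4 of the 7 genes here, all with AKR above.

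**Figure D1:**
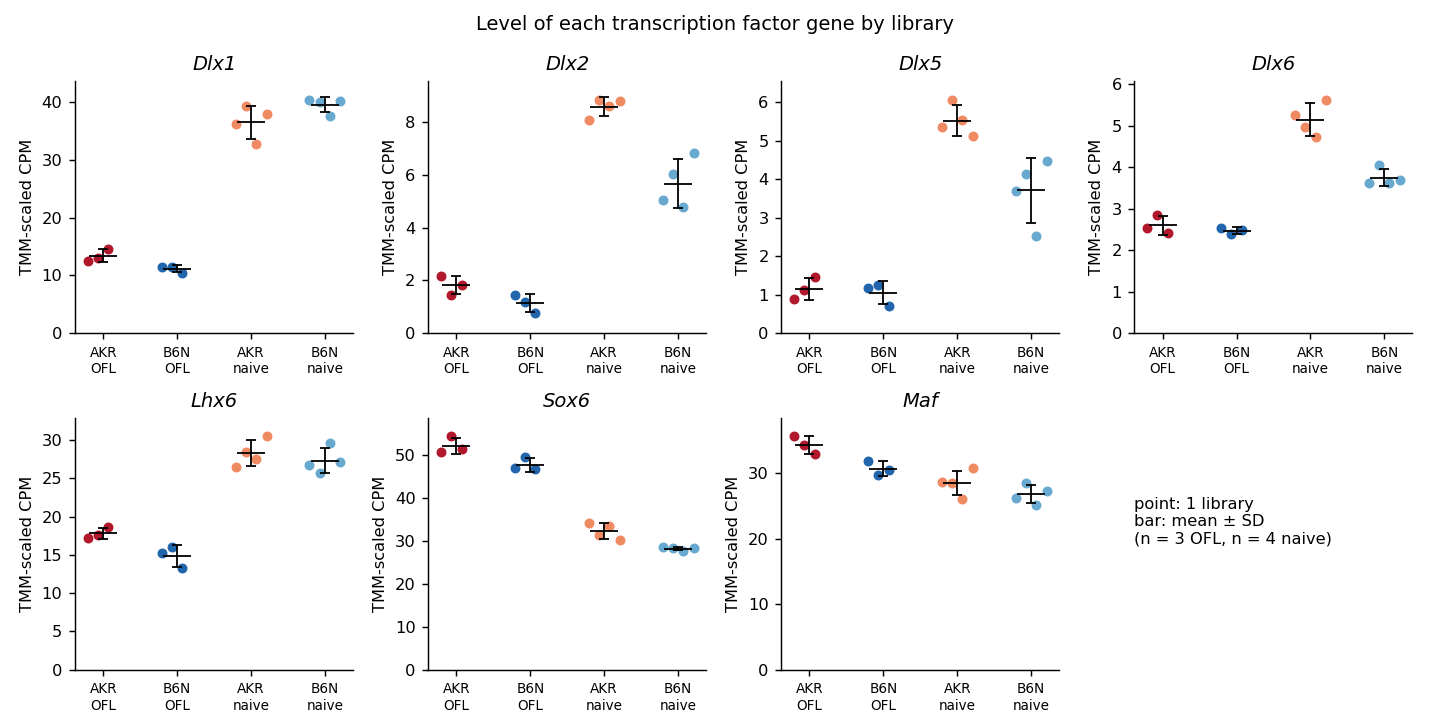
TMM-scaled CPM (vertical axes, from 0) of each gene in every library, by strain and condition, with points for single libraries and bars for the mean ± SD (n = 3 OFL and n = 4 naive libraries per strain). Dlx2, Dlx5, Dlx6 and Sox6 separate naive AKR from naive B6N libraries, the 4 Dlx genes and Lhx6 are lower in OFL libraries, and Sox6 and Maf are higher there.

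Among OFL libraries, none of the 7 genes was called between the strains, where 16.4% of the 17994 genes tested were, 7.5% being higher and 8.86% lower in AKR. All 7 differences were positive with every library in, and the unadjusted edgeR p values ran from 0.0135 (Lhx6) to 0.735 (Dlx6). As ratios to GABA genes, given below, those of Dlx5, Dlx6, Sox6 and Maf were negative. The 3 AKR libraries were above the 3 B6N libraries in 5 of the 7 genes, the exceptions being Dlx5 and Dlx6, while 31.2% of all genes tested had groups without overlap, 16.3% with AKR above. The median difference of the 7 genes was 0.15, beside 0.00 over all genes.

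Dlx2 again had the largest strain difference of the 7, but on few reads. It had 2.15, 1.46 and 1.82 CPM in AKR OFL libraries, against 1.44, 1.19 and 0.779 CPM in B6N OFL libraries, from 29, 21 and 25 reads in AKR and 21, 17 and 11 reads in B6N. Its log2 difference was 0.65 (SE 0.27, interval 0.12 to 1.18, edgeR adjusted p = 0.118). Dlx1 had 12.5, 13.1 and 14.6 CPM in AKR OFL libraries, against 11.5, 11.5 and 10.4 CPM in B6N OFL libraries, at 0.26 (interval 0.06 to 0.46, edgeR adjusted p = 0.0958). Here Dlx1 stood on the same side as Dlx2, unlike in naive mice.

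Dlx5 and Dlx6, both called between naive strains, overlapped between the strains in OFL libraries. Dlx5 had 0.890, 1.11 and 1.46 CPM in AKR OFL libraries, against 1.17, 1.26 and 0.708 CPM in B6N OFL libraries, from 10 to 20 reads per library. Dlx6 had 2.52, 2.86 and 2.40 CPM in AKR OFL libraries, against 2.54, 2.38 and 2.48 CPM in B6N OFL libraries. The log2 differences were 0.13 for Dlx5 (interval -0.46 to 0.73) and 0.07 for Dlx6 (interval -0.30 to 0.44). The interval of Dlx5 held its naive difference, and that of Dlx6 ended close to its naive 0.46. Leaving out 1 library turned their sign, to as low as -0.073 for Dlx5 (without replicate 3 of B6N OFL, and likewise without replicate 3 of AKR OFL) and to -0.013 for Dlx6 (without replicate 2 of AKR OFL).

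In Lhx6, Sox6 and Maf each AKR OFL library was above each B6N OFL library. Lhx6 had 17.1, 17.6 and 18.6 CPM in AKR OFL libraries, against 15.3, 16.0 and 13.3 CPM in B6N OFL libraries, at 0.25 (SE 0.09, edgeR adjusted p = 0.0714). With all 14 libraries in 1 fit the same difference was called (0.26, edgeR adjusted p = 0.0457). Sox6 had 50.7, 54.3 and 51.3 CPM in AKR OFL libraries, against 46.8, 49.4 and 46.6 CPM in B6N OFL libraries, at 0.12 (interval 0.01 to 0.24, edgeR adjusted p = 0.186). Sox6, called between the naive strains, was not called here. Maf had 35.6, 34.3 and 33.0 CPM in AKR OFL libraries, against 31.9, 29.7 and 30.5 CPM in B6N OFL libraries, at 0.15 (interval 0.02 to 0.28, edgeR adjusted p = 0.143).

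Whether a strain difference itself differed between OFL and naive mice was tested as an interaction, the AKR change minus the B6N change, which uses the same libraries as the comparisons above. Dlx1 was the 1 gene of the 7 called, where 5.15% of the 20291 genes tested were (3.61% positive and 1.54% negative). Its interaction was 0.38 (SE 0.11, edgeR adjusted p = 0.0437), made of a negative naive difference and a positive OFL difference. The call was lost, at edgeR adjusted p values from 0.0540 to 0.158, when any 1 of 9 libraries was left out. These are replicates 1 and 3 of naive AKR, 1 and 4 of naive B6N, 2 and 3 of AKR OFL, and 1, 2 and 3 of B6N OFL. By limma-voom the adjusted p was 0.0740.

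For Dlx5 and Dlx6 the interaction was negative but not called. It was -0.43 for Dlx5 (interval -1.13 to 0.28, edgeR adjusted p = 0.610) and -0.39 for Dlx6 (interval -0.79 to 0.01, edgeR adjusted p = 0.373). Their naive strain differences are therefore not shown to differ from those in OFL libraries. For Dlx2 it was 0.06 (interval -0.50 to 0.62) and for Lhx6 0.21 (-0.002 to 0.41, edgeR adjusted p = 0.33). For Sox6 it was -0.06 (-0.21 to 0.09) and for Maf 0.07 (-0.10 to 0.24).

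Between library sets, the 4 Dlx genes and Lhx6 were lower and Sox6 and Maf higher in OFL than in naive libraries, in both strains. All 7 genes were called in each strain, beside 78.7% of all genes tested in AKR and 78.4% in B6N, so that a call here is no result about the 7. In AKR 39.8% of genes were called higher and 38.8% lower, and in B6N 40% higher and 38.4% lower. The 4 Dlx genes had the largest falls in AKR, and Dlx1, Dlx2 and Dlx5 in B6N. The median difference of the 7 genes was -0.99 in AKR and -0.87 in B6N, beside -0.01 and 0.00 over all genes.

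Dlx2 fell to a mean of 1.81 ± 0.344 CPM in AKR OFL libraries, against 8.59 ± 0.364 CPM in naive AKR libraries (SD, n = 3 and 4). It fell to 1.14 ± 0.334 CPM in B6N OFL libraries, against 5.67 ± 0.939 CPM in naive B6N libraries. These are 4.75-fold and 4.96-fold lower levels, with log2 differences of -2.25 (SE 0.17) and -2.31 (SE 0.19). Dlx5 was 4.76-fold lower in AKR and 3.55-fold lower in B6N OFL libraries, at -2.25 (SE 0.22) and -1.83 (SE 0.23), with means of 1.15 ± 0.285 and 1.04 ± 0.295 CPM in OFL libraries and of 5.52 ± 0.404 and 3.70 ± 0.851 CPM in naive libraries of AKR and B6N.

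The fall of Dlx1 is the one that entered the interaction called above. Its mean was 13.4 ± 1.12 CPM in AKR OFL libraries, against 36.6 ± 2.83 CPM in naive AKR libraries, and 11.1 ± 0.632 CPM in B6N OFL libraries, against 39.6 ± 1.35 CPM in naive B6N libraries. The falls were 2.73-fold and 3.56-fold, at -1.45 (SE 0.07) and -1.83 (SE 0.08). Dlx6 had the smallest fall of the Dlx genes, 1.98-fold in AKR (-0.99, SE 0.14) and 1.52-fold in B6N (-0.60, SE 0.14). Lhx6 fell 1.59-fold in AKR (-0.67, SE 0.07) and 1.83-fold in B6N (-0.87, SE 0.08).

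Sox6 averaged 52.1 ± 1.89 CPM in AKR OFL libraries, against 32.2 ± 1.83 CPM in naive AKR libraries, and 47.6 ± 1.54 CPM in B6N OFL libraries, against 28.2 ± 0.395 CPM in naive B6N libraries. It was 1.62-fold and 1.69-fold higher, at 0.70 and 0.76 (SE 0.05 each). Maf rose least of the 7, to 34.3 ± 1.31 CPM in AKR OFL libraries, against 28.5 ± 1.88 CPM in naive AKR libraries, and to 30.7 ± 1.12 CPM in B6N OFL libraries, against 26.8 ± 1.42 CPM in naive B6N libraries. Its log2 differences were 0.26 and 0.20 (SE 0.06 each), with edgeR adjusted p values of 0.000382 and 0.00615. For none of the 7 genes did OFL and naive libraries of a strain overlap, as for 76.7% of all genes tested in each strain.

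**Figure D2:**
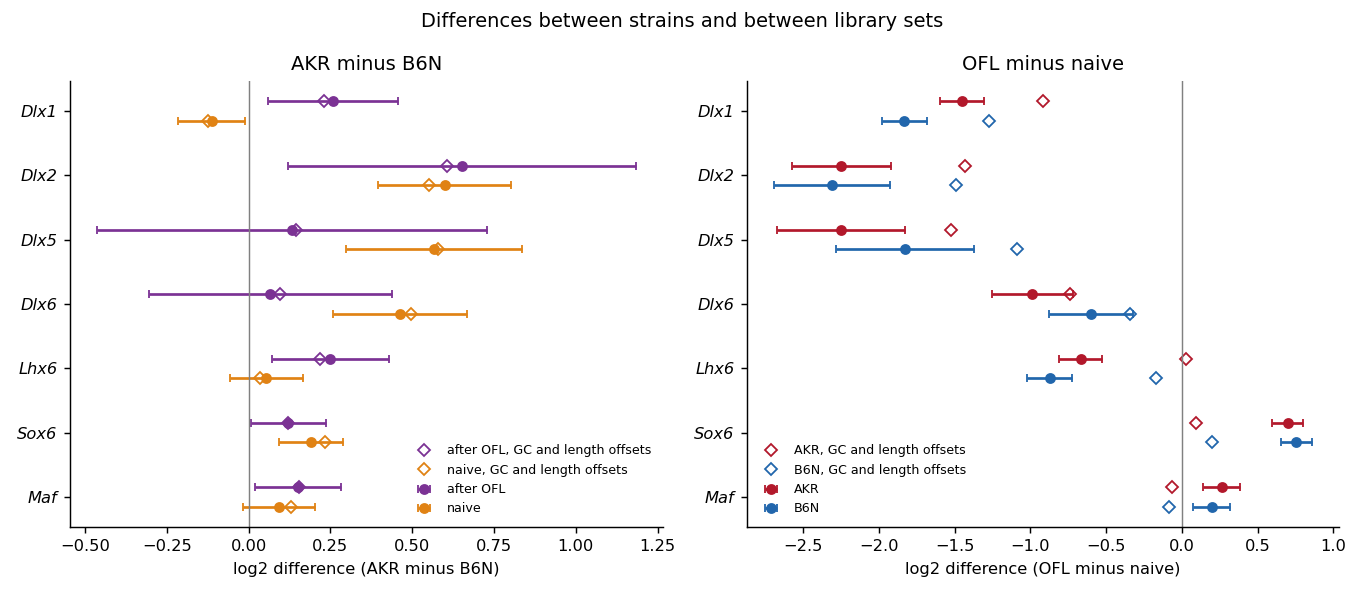
Log2 differences (horizontal axes) of AKR minus B6N within OFL and within naive libraries (left) and of OFL minus naive within each strain (right). Filled points carry approximate 95% intervals. Open diamonds give the same difference after offsets for transcript GC share and length. The strain differences hardly move with the offsets, while the OFL minus naive differences of Lhx6, Sox6 and Maf come close to 0 and those of Dlx1, Dlx2 and Dlx5 stay below -0.9.

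Across 14928 protein-coding genes, the OFL minus naive difference ran with the make-up of the transcript, with a Spearman rho of -0.576 in AKR and -0.587 in B6N against GC share and of 0.395 and 0.366 against length. These are descriptions over genes measured in the same libraries. With the genes cut into 5 equal classes of GC share, low to high, the median log2 difference in AKR was 0.41, 0.15, -0.14, -0.43 and -0.70, and in B6N 0.41, 0.15, -0.14, -0.43 and -0.71. Among the 7 genes, the 2 that rose have the lowest GC share of the longest transcript, 46.1% for Sox6 and 47.4% for Maf. Those that fell have 49.4% (Dlx6), 54.6% (Dlx1), 54.7% (Dlx5), 56.2% (Lhx6) and 58.3% (Dlx2).

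With offsets for GC share and length, a setting added after the data had been seen and run on protein-coding genes alone, 67% of genes in AKR and 67.8% in B6N were called. Dlx1 (-0.92 in AKR and -1.27 in B6N), Dlx2 (-1.43 and -1.49), Dlx5 (-1.52 and -1.09) and Dlx6 (-0.74 and -0.34) were still called lower in both strains. Lhx6 was at 0.03 in AKR (edgeR adjusted p = 0.757) and at -0.17 in B6N (0.0385). Sox6 was at 0.09 in AKR (edgeR adjusted p = 0.0915) and at 0.20 in B6N (0.000928), and Maf at -0.06 (0.367) and -0.09 (0.217). With the offsets the calls of Lhx6 and Sox6 in AKR and of Maf in both strains were thus lost. Strain differences hardly ran with GC share, at a rho of 0.162 in naive and 0.233 in OFL libraries, and kept every call of the 7 genes with the offsets. The interaction of Dlx1 was 0.36 with them (edgeR adjusted p = 0.0352).

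**Figure D3:**
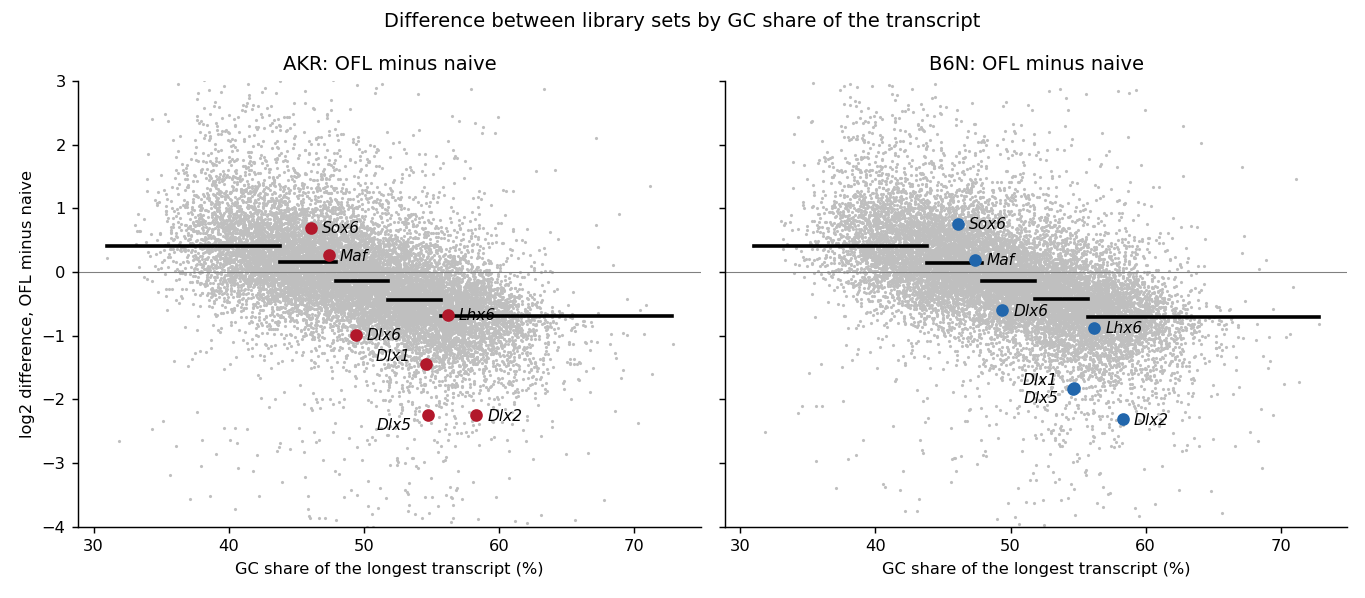
OFL minus naive log2 difference (vertical axis) of protein-coding genes (grey, cropped at -4 and 3) against the GC share of the longest transcript (horizontal axis, in percent), for AKR (left) and B6N (right), with bars for the median of each of 5 equal classes of GC share and coloured points for the 7 genes. Lhx6 and Maf sit near the medians of their classes, while Dlx1, Dlx2, Dlx5 and Dlx6 lie below theirs and Sox6 above.

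Each gene was set against GABA genes of the same library, a measure that needs no scaling between libraries. On it, the naive strains did not overlap in Dlx1, Dlx2 and Dlx6. The share of all genes without overlap in such ratios was not computed. For levels it was 34.7% between naive strains, 31.2% between OFL strains and 76.7% between library sets in each strain. The measure was the log2 level of a gene minus the mean log2 level of Gad1 and Gad2, which make GABA, and Slc32a1, which loads it into vesicles. Together with ratios between neighbours, 40 ratio comparisons were tested by two-sided exact permutation over libraries. The smallest p possible is 0.0286 for 4 against 4 libraries, 0.0571 for 3 against 4 and 0.1 for 3 against 3, and after Benjamini-Hochberg adjustment over the 40 no ratio was below 0.0993. The mean log2 CPM of the 3 GABA genes was itself 7.48 ± 0.0674 in naive AKR and 7.33 ± 0.0561 in naive B6N libraries (exact permutation p = 0.0286). Of them Slc32a1 was called higher in naive AKR (0.30), while Gad1 (0.09) and Gad2 (0.05) were not called.

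In naive mice the ratio of Dlx2 to GABA genes was -4.38 ± 0.0565 in AKR and -4.84 ± 0.192 in B6N (SD, n = 4 each). They differed by 0.47 without overlap (exact permutation p = 0.0286). That of Dlx6 differed by 0.31, also without overlap (exact permutation p = 0.0286), and that of Dlx5 by 0.46 with overlap (exact permutation p = 0.0571). The ratio of Dlx1 went the other way, at -2.29 ± 0.0701 in AKR and -2.02 ± 0.0428 in B6N (difference -0.27, no overlap, exact permutation p = 0.0286). Sox6, called on its level, differed by 0.04 as a ratio with overlapping strains, and Lhx6 by -0.10 and Maf by -0.06, both overlapping. With Lhx6 in place of the GABA genes, the Dlx1 difference was -0.17 (exact permutation p = 0.0857). Between OFL strains the mean of the GABA genes was itself 0.21 higher in AKR (exact permutation p = 0.1). The ratios there differed by 0.06 for Dlx1, 0.49 for Dlx2 and 0.06 for Lhx6. They differed by -0.05 for Dlx5, -0.14 for Dlx6, -0.08 for Sox6 and -0.05 for Maf. Only Sox6 did not overlap, with AKR below (exact permutation p = 0.1).

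Between library sets, the GABA genes were lower in OFL libraries themselves, by -0.66 on the log2 scale in AKR and -0.72 in B6N. Slc32a1, with a transcript GC share of 61.9%, was at -1.37 in AKR and -1.40 in B6N. Gad1 was at -0.30 and -0.32, and Gad2 at -0.32 and -0.45. The ratios carry no offset for GC share or length, with which the levels of Sox6 and Maf moved as given above. Relative to them, the OFL and naive libraries overlapped in Lhx6, at -0.00 in AKR and -0.16 in B6N. Dlx1 (-0.79 in AKR and -1.11 in B6N), Dlx2 (-1.60 and -1.63) and Dlx5 (-1.62 and -1.12) lay below naive libraries without overlap in each strain. Dlx6 was below in AKR (-0.33) and overlapped in B6N (0.12), and Sox6 (1.36 and 1.48) and Maf (0.93 and 0.92) lay above without overlap. Each difference without overlap had the smallest p of 3 against 4 libraries.

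**Figure D4:**
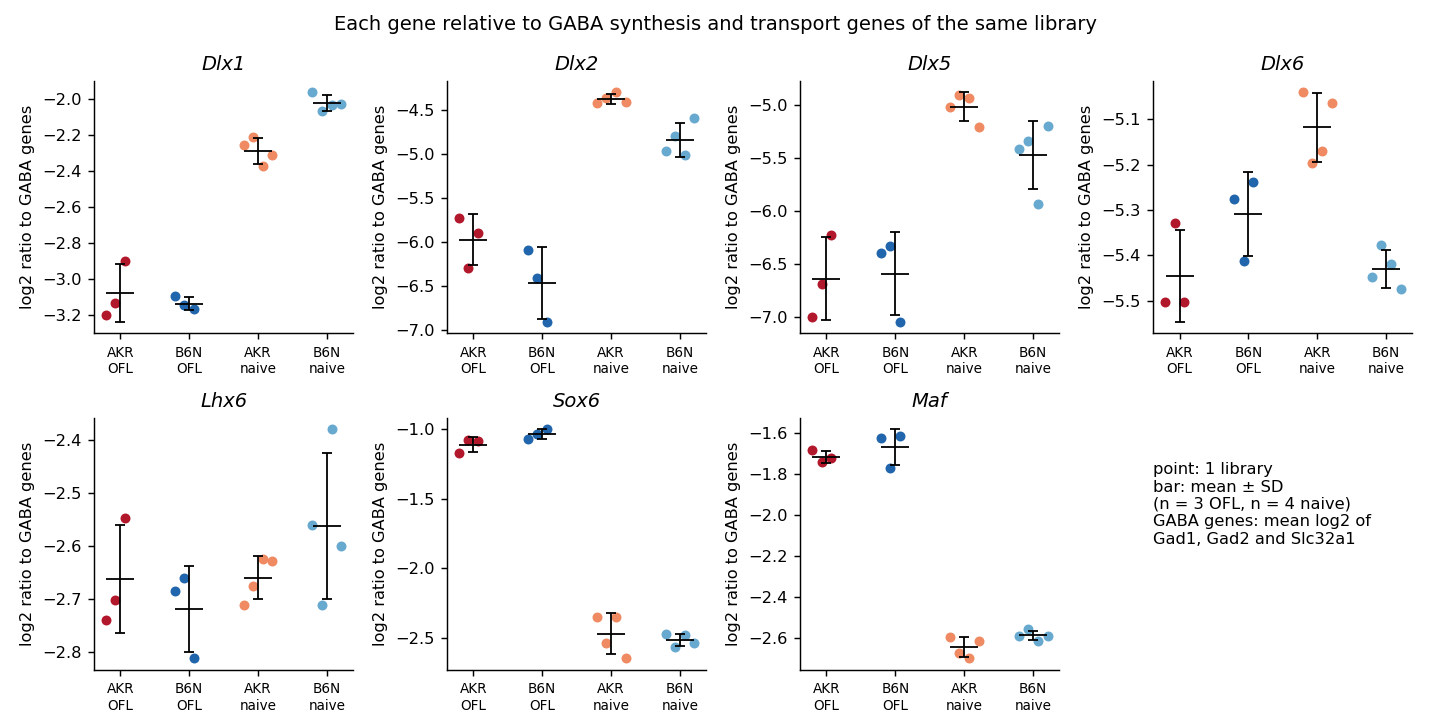
Log2 ratio of each gene to the mean of Gad1, Gad2 and Slc32a1 in the same library (vertical axes, not starting at 0), by strain and condition, with points for libraries and bars for the mean ± SD. In naive mice Dlx2 and Dlx6 are higher and Dlx1 lower in AKR without overlap, and in OFL libraries the ratio of Lhx6 overlaps that in naive libraries while Dlx1, Dlx2 and Dlx5 lie below theirs.

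The facing pairs were then compared within libraries. Reads of Dlx1 exceeded those of Dlx2 by a log2 ratio of 2.09 ± 0.109 in naive AKR and 2.82 ± 0.210 in naive B6N libraries, a difference of -0.73 without overlap (exact permutation p = 0.0286). In OFL libraries the ratio was 2.90 ± 0.327 in AKR and 3.34 ± 0.375 in B6N, and the strains overlapped (exact permutation p = 0.3). The ratio of Dlx5 to Dlx6 overlapped between the strains in both library sets. It was lower in OFL than in naive libraries, at -1.19 against 0.10 in AKR and at -1.28 against -0.05 in B6N, without overlap in either strain.

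Dlx1as (ENSMUSG00000084946), an antisense transcript whose exons cover 335 of the 5396 exonic bases of Dlx1, is set beside Dlx1 here. Its level was 2.62 ± 0.528 CPM in naive AKR and 4.57 ± 0.335 CPM in naive B6N libraries, a log2 difference of -0.80 (SE 0.14, edgeR adjusted p = 0.000189). In OFL libraries it was 4.02 ± 0.484 CPM in AKR and 4.19 ± 0.174 CPM in B6N (-0.07, edgeR adjusted p = 0.833). It rose in OFL libraries of AKR by 0.61 (edgeR adjusted p = 0.00108) and was at -0.13 in B6N (edgeR adjusted p = 0.416), and its interaction of 0.74 was called (edgeR adjusted p = 0.0394). The ratio of Dlx1 to Dlx1as differed by 0.70 between naive AKR and naive B6N libraries without overlap (exact permutation p = 0.0286), and by -2.08 in AKR and -1.71 in B6N between OFL and naive libraries. Whether the reads were counted by strand is not given in the sources used here, so reads of the shared bases cannot be assigned for certain. The same limit touches 104 of 2375 exonic bases of Dlx6 under Dlx6os2, which had at most 8 reads in any library, and 440 of 8241 of Maf under Gm15655, which had 0 reads in every library. Lhx6 shares 104 bases with the small RNA gene Gm27953 of its own strand, which had at most 1 read per library.

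**Figure D5:**
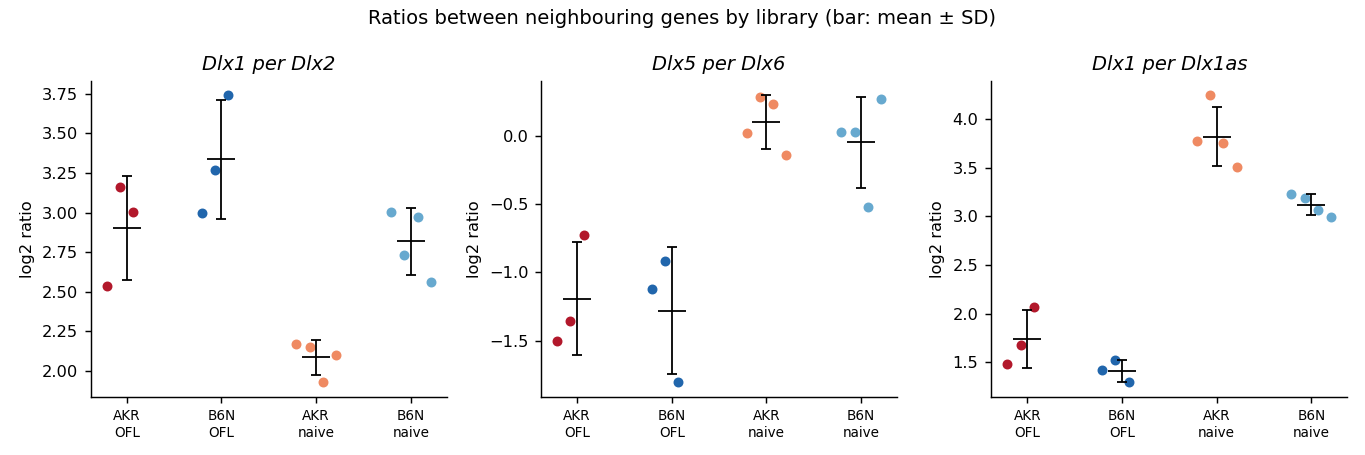
Log2 ratios of reads between neighbouring genes in each library (vertical axes, not starting at 0), by strain and condition, with points for libraries and bars for the mean ± SD. Dlx1 per Dlx2 is lower in naive AKR than in naive B6N libraries without overlap, Dlx5 per Dlx6 is near 0 in naive libraries and about -1.2 in OFL libraries, and Dlx1 per Dlx1as is highest in naive AKR libraries.

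Ordered by level per kilobase of exons, Dlx1 led in naive mice and Maf in OFL libraries. Exonic bases were merged over all transcripts of a gene, and the order depends on that choice. They came to 14832 for Sox6 and 8241 for Maf, whose longest transcripts have 8668 and 6360 bases. Per base of the longest transcript, Sox6 would stand above Maf in both OFL groups. In naive AKR libraries the means were 6.78 CPM per kilobase for Dlx1, 5.87 for Lhx6, 3.46 for Maf, 3.01 for Dlx2, 2.44 for Dlx5, 2.17 for Sox6 and 2.16 for Dlx6. Dlx1 overlapped Lhx6 there, and Dlx5 overlapped Sox6, which overlapped Dlx6. In naive B6N libraries they were 7.34 for Dlx1, 5.68 for Lhx6, 3.25 for Maf, 1.99 for Dlx2, 1.90 for Sox6, 1.64 for Dlx5 and 1.58 for Dlx6. Each of the last 4 overlapped its neighbour in that order.

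In AKR OFL libraries the order was Maf at 4.16, Lhx6 at 3.70, Sox6 at 3.51, Dlx1 at 2.48, Dlx6 at 1.09, Dlx2 at 0.634 and Dlx5 at 0.510 CPM per kilobase. In B6N OFL libraries it was Maf at 3.72, Sox6 at 3.21, Lhx6 at 3.10, Dlx1 at 2.06, Dlx6 at 1.04, Dlx5 at 0.462 and Dlx2 at 0.398 CPM per kilobase. In both strains Lhx6 overlapped Sox6 and Dlx2 overlapped Dlx5. The 4 Dlx genes thus took the last 4 places in both OFL groups, whereas Dlx1 held the first place in both naive groups.

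Of 30 other genes of the lineage, 24 were tested between the naive strains. In AKR 10 were higher and 4 lower, where 18.3% of all genes tested were higher and 19.5% lower. The list's median difference was 0.17, beside 0.01 over all genes. The 4 with the smallest p were Npas1 (0.60), a bHLH-PAS factor, Npas3 (0.67), another of that family, Nr2f1 (0.25), a nuclear receptor, and Satb1 (0.19), a chromatin organiser that acts after Lhx6. In OFL libraries 3 of 24 were higher and 2 lower in AKR, beside 7.5% and 8.86% of all genes, led by Npas1 (0.63), the SOX gene Sox5 (0.28), the LIM-only gene Lmo3 (-0.37) and Satb1 (0.21).

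Between OFL and naive libraries the share of the lineage list that was called was not above that of all genes, 78.7% in AKR and 78.4% in B6N. In AKR 9 of 25 were higher and 10 lower (median 0.05), and in B6N 7 were higher and 9 lower (median -0.13). The smallest p values belonged in both strains to Dlx6os1, a long noncoding transcript of the Dlx5 and Dlx6 locus (1.68 in AKR and 1.47 in B6N), the neuregulin receptor gene Erbb4 (1.03 and 1.07), the zinc finger gene Zeb2 (0.78 and 0.86) and the synaptic adhesion gene Elfn1 (-1.39 and -1.62). Dlx6os1 thus stood higher where Dlx5 and Dlx6 stood lower, and its longest transcript has a GC share of 38.2%, below that of each of the 7 genes. Between naive strains Dlx6os1 was called lower in AKR (-0.19, edgeR adjusted p = 0.0217), where Dlx5 and Dlx6 were called higher. Between OFL strains it was at 0.02 (edgeR adjusted p = 0.905). In the interaction Dlx1as was higher, and Npas3 (-0.55) and the MADS-box gene Mef2c (-0.19) were lower, of 25.

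Markers of interneuron classes give the setting of these values. Between naive strains, 5 of 10 pan-GABAergic genes were called higher and 1 lower in AKR, with 2 higher and 4 lower of 12 somatostatin genes, 2 and 0 of 9 parvalbumin genes, and 1 and 4 of 12 VIP and LAMP5 genes. Over all genes tested, 18.3% were higher and 19.5% lower. The lists' summed levels in naive mice ran from 1516 to 1601 CPM in AKR and 1496 to 1576 CPM in B6N for the pan-GABAergic list, and from 442.0 to 479 CPM in AKR and 468 to 502 CPM in B6N for the somatostatin list. Parvalbumin genes summed to between 450.4 and 473 CPM in naive AKR and between 383 and 445 CPM in naive B6N libraries. Between OFL and naive libraries 2 of 10 pan-GABAergic genes were higher and 8 lower in either strain, with 1 higher and 8 lower of 12 somatostatin genes, 3 and 5 of 9 parvalbumin genes, and 2 and 9 of 12 VIP and LAMP5 genes. None of 10 glutamatergic genes was higher, and 8 in AKR and 9 in B6N were lower. Over all genes tested, 39.8% were higher and 38.8% lower in AKR, and 40% higher and 38.4% lower in B6N.

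Other cells that express these genes were checked the same way. The shares of all genes beside every list below are 18.3% higher and 19.5% lower in naive AKR than in naive B6N. Between OFL and naive libraries they are 39.8% higher and 38.8% lower in AKR, and 40% higher and 38.4% lower in B6N. For Sox6, oligodendrocyte precursor genes had 2 called higher and 3 lower of 12 between the naive strains. Olig1 (0.19) and Pdgfra (0.17) were higher in AKR by about as much as Sox6, and Tnr (-0.32) and Gpr17 (-0.34) were lower. The list summed to 598 to 638 CPM in naive AKR and 646 to 673 CPM in naive B6N libraries. Between OFL and naive libraries 3 of 12 rose and 7 fell in AKR, and 4 rose and 7 fell in B6N, with sums of 619 to 627 CPM in AKR OFL and 584 to 596 CPM in B6N OFL libraries.

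For the Dlx genes, 0 of 10 striatal genes tested were called higher and 3 lower in naive AKR, with sums of 279 to 308 CPM in naive AKR and 329 to 346 CPM in naive B6N libraries. Between OFL and naive libraries 3 of 10 striatal genes were higher and 6 lower in AKR (median -0.76), and 3 were higher and 5 lower in B6N (median -0.73), though the list summed to 358 to 363 CPM in AKR OFL and 339 to 368 CPM in B6N OFL libraries. Of 7 neuroblast genes tested, 2 were higher and 2 lower in naive AKR. The list summed to 359.8 to 397 CPM in naive AKR and 351 to 367 CPM in naive B6N libraries. Against naive libraries, 4 were higher and 1 lower in AKR OFL, and 5 higher and 1 lower in B6N OFL. The sums there were 489 to 503 CPM in AKR OFL and 501 to 512 CPM in B6N OFL libraries. This list includes Dlx6os1, of the Dlx5 and Dlx6 locus, so it is no independent measure of neuroblasts. Dlx6os1 was among the genes called lower in naive AKR (-0.19) and higher in OFL libraries (1.68 in AKR and 1.47 in B6N). Microglial genes, of which 4 of 12 were higher and 5 lower in naive AKR, summed to 313 to 336 CPM in AKR OFL, 344 to 354 CPM in B6N OFL, 365 to 429 CPM in naive AKR and 423 to 478 CPM in naive B6N libraries. Between OFL and naive libraries 1 of 12 microglial genes was higher in either strain, with 10 lower in AKR and 9 in B6N. Endothelial genes had 4 of 10 higher and 2 lower in naive AKR than in naive B6N. Between OFL and naive libraries 1 endothelial gene was higher and 6 lower in AKR, and 3 were higher and 6 lower in B6N. No list had a gene at 0 in all 14 libraries, and the part of these cells in the differences of the 7 genes was not tested.

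With the mean of each condition taken out, the 7 genes varied together to different degrees over the 14 libraries. Pearson's r of log2 CPM was 0.708 for Dlx2 with Dlx5, 0.713 for Dlx2 with Maf and 0.71 for Dlx6 with Sox6, and -0.212 for Dlx1 with Dlx6. The points share strain, depth and base composition, so r is a description. By the same measure over 13360 genes, the closest to Dlx1 were Mafg (0.904), St8sia5 (0.903) and Rab11b (0.892), and to Dlx2 Cacng7 (0.961), Fastk (0.954) and Pcnx2 (0.953). Closest to Dlx5 were Foxred2 (0.897), Ptafr (0.892) and Rnf207 (0.887), and to Dlx6 Aldh6a1 (0.957), Tcf19 (0.949) and Gkn3 (0.944). Lhx6 was closest to Ccdc155 (0.913), Ptdss2 (0.900) and Mn1 (0.895), Sox6 to Pcdh11x (0.954), Camk4 (0.952) and Zfp612 (0.948), and Maf to Trmt2b (0.909), Kcp (0.904) and Dgcr2 (0.896). None of the 7 genes was among the 3 closest of another.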

How the data were processed

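The authors deposited raw counts per Ensembl gene for naive and for OFL libraries in separate tables, and these were the input. Per the submitters' processing notes, the build was GRCm38 and the tools included TopHat2 2.1.1, HTSeq, cutadapt 2.7, CASAVA and edgeR; the annotation release is not given in the sources used here. GENCODE M21 named 53360 of 53465 identifiers. Tests used edgeR 4.0.16 in R 4.3.3 with its expression filter by group, TMM scaling, and Benjamini-Hochberg adjustment. Strain was tested within 8 naive and within 6 OFL libraries, OFL minus naive and the interaction in 1 fit of 14. The fits were tested on simulated data. Likeness used log2 of CPM plus 0.1 for genes averaging 1 CPM or more. Named genes were the 7, overlapping genes, up to 4 called list members of smallest p, and the 3 closest by r. The genes and lists were chosen with earlier results of these data known. Replicates differed beyond sampling noise, with a chi-square per gene of at least 1.73. Alternatives were DESeq2 1.42.0, limma-voom (limma 3.58.1), other scalings, filters and fits, and leaving out each library.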

Additional observations from a re-analysis of the deposited data

Results flagged for a closer look

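Dlx1 in naive B6N replicate 3 was at 37.62 CPM, below the other 3 naive B6N libraries, which lay close together between 40.1 and 40.5 CPM. In the 32 groups of libraries examined, chance flags about 1 in 20. The interaction of Dlx1, 0.3806 on the log2 scale, was the 1 difference between the strains' OFL minus naive changes that was called among the 7 genes, and the call was lost when any 1 of 9 libraries was left out, as given with its value in the results.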

How the results depend on the processing

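The 4 calls between naive strains kept their direction under every alternative run for them, with 4 or 5 of the 7 genes called, or 3 of the 4 that are tested among genes with no opposite-strand overlap, where Dlx6 is not tested. With offsets for GC share and length, chosen after seeing the data, 10005 genes in AKR and 10123 in B6N were called between OFL and naive libraries, 4 of the 7 genes were called in AKR, and Lhx6 in AKR (0.026) and Maf in AKR (-0.063) and B6N (-0.087) changed sign. Among genes with no opposite-strand overlap, all 4 of the 7 that are tested were called between OFL and naive libraries in each strain; 695 genes and 0 of the 7 were called in the interaction, where Dlx1 is not tested. By limma-voom 0 of the 7 were called in the interaction. With all 14 libraries in 1 fit, 1 of the 7 was called between OFL strains. Leaving out 1 library gave 0 to 1 of the 7 called in the interaction, and 1934 (without B6N OFL replicate 2) to 3514 genes called between OFL strains. Leaving out 1 naive library raises the smallest possible exact permutation p of a ratio to 0.0571, above the threshold by construction. Fits with the replicate number as a block called 4, 0, 7, 7 and 1 of the 7 genes (naive strains, OFL strains, OFL minus naive in AKR and in B6N, interaction), as without it. Deviations of same-numbered libraries from their group means correlated between -0.166 and 0.132. No shared effect of the number was thus seen, but such values cannot tell whether same-numbered libraries were handled together. With 10 to 29 reads per OFL library, Dlx2 and Dlx5 are limited by depth. Differences that missed the threshold could turn sign with 1 library left out, as those of Dlx5 and Dlx6 between OFL strains did and the interaction of Dlx2 (-0.15 to 0.27).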
